A study of Mus musculus with 12 samples.

Results

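RNA sequencing of wild-type neocortex, taken from mice at embryonic day 16, makes up 4 of the 12 libraries of the series. The other 8 are labelled homozygous knockouts of Nfia or of Nfib, genes of nuclear factor I transcription factors, 4 of each. The wild types came from 2 lines on C57BL/6, 2 libraries from the line with the targeted allele Nfia{tm1Rmg} and 2 from the line with Nfib{tm1Rmg}, as titles and strain give them. They are called here the Nfia-line and the Nfib-line wild types, and by their genotype label neither carries a knockout. The tissue was microdissected neocortex, snap frozen before RNA was isolated. The labels give neither the sex of the embryos nor whether the libraries came from separate embryos or litters. The values are the authors' weighted averages per group in FPKM (fragments relative to transcript length and library size). There is thus 1 value per gene and group, the spread between libraries and the read depth are unknown, and no difference below could be tested. A difference between the groups also cannot be told apart from one of litter, dissection or library preparation. Of 23352 gene rows, 22109 lie on an autosome by symbol and have values. Rows on X (1034) and Y (42) were left out, and rows at 1 FPKM or more in either group, 11937 in number, were compared.

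At this age the mouse neocortex is built in layers around the ventricle. Radial glia line the ventricle and divide to give intermediate progenitors, and both give excitatory neurons, which migrate outwards, deep-layer neurons first and upper-layer neurons later. Inhibitory interneurons are born in the ganglionic eminences below the cortex and migrate in. The hippocampus and cortical hem border the neocortex on the medial side, the striatum and the lateral pallium on the ventral side, and the meninges cover it, so the cut edge of a dissection decides how much of each is included. In bulk tissue, more cells of a type and more RNA per cell cannot be told apart.

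Genes of translation and of the cytoskeleton held the highest levels. Ribosomal protein and elongation factor messages of vertebrates are known for a run of pyrimidines at their 5′ end, and the starts of the 6 highest rows of this kind with a single start in the RefSeq table are printed because these genes lead the transcriptome. Each line gives 15 bases before and 15 from the annotated start, 5′ to 3′, on build GRCm38.p6, with capitals for any run of at least 7 C or T that reaches within 10 bases of the start on the transcribed strand.
Eef1a1: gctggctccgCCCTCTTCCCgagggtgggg
Rpl41: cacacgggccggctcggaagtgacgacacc
Rpl38: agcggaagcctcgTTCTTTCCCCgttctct
Rps12: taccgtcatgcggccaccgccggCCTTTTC
Rps23: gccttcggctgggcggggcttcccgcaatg
Rpl35: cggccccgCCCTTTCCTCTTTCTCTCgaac
They lie at chr9:78481710-78481739 (minus strand), chr10:128549154-128549183 (minus), chr11:114668565-114668594 (plus), chr10:23787195-23787224 (minus), chr13:90923107-90923136 (plus) and chr2:39005117-39005146 (minus), in the order printed. Such a run was found at 29 of 61 annotated starts of ribosomal protein genes (47.5%) and at 6466 of 32851 starts of all genes (19.7%). This describes the letters around annotated starts, which can lie some bases from the true one.

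Tuba1a, the alpha tubulin of young neurons, was the highest autosomal row, at 5153 FPKM in the wild types of the Nfia line and 5446 in those of the Nfib line. Eef1a1, the translation elongation factor, followed at 4526 and 4687 FPKM. Stmn1, which encodes the microtubule regulator stathmin, stood at 2768 and 2892 FPKM, and the beta tubulin Tubb2b at 2176 and 2387. Among the next rows were the actin Actg1 (1973 and 2021 FPKM), the thymosin Tmsb10 (1546 and 1734), the neuronal beta tubulin Tubb3 (1380 and 1546) and the imprinted gene Nnat, which encodes neuronatin (1284 and 1583). Tubulin and actin genes have near-identical relatives, so the split of reads between them is uncertain. The highest rows were nearly the same in both groups, with 27 shared among the 30 highest of each and 94 among the 100 highest.

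**Figure D1:**
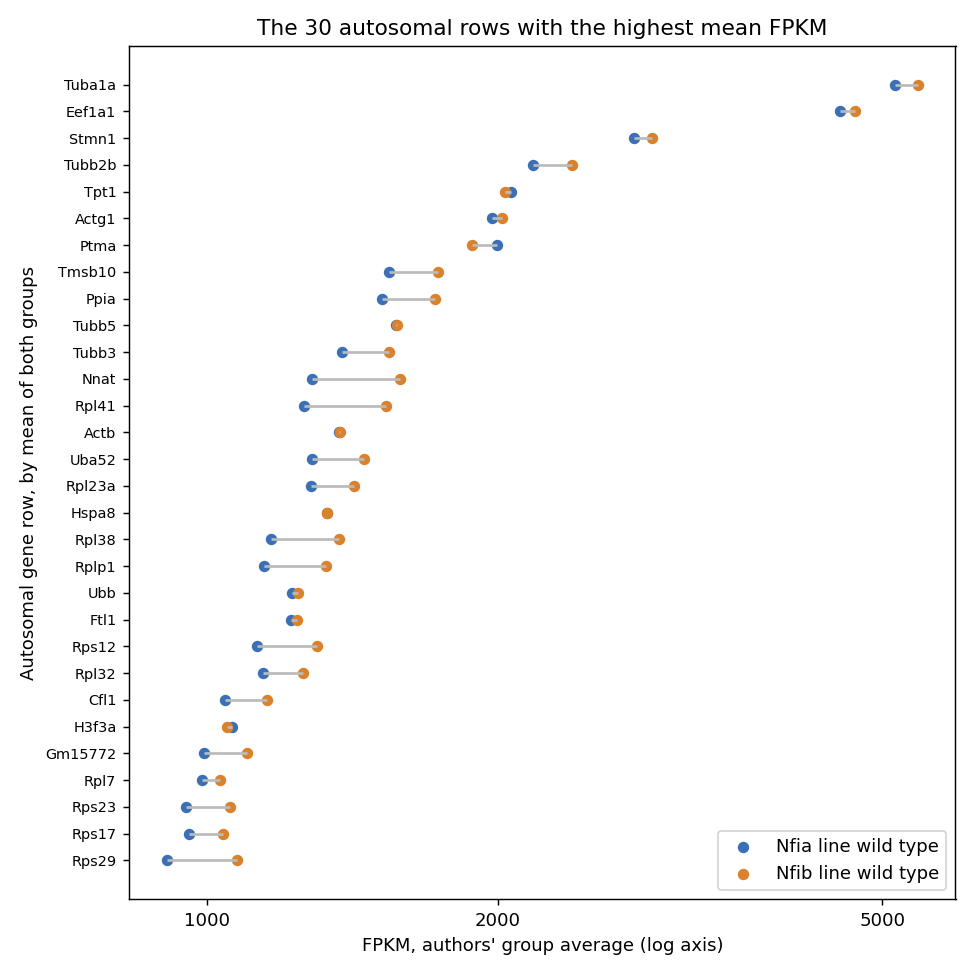
The 30 autosomal rows with the highest mean FPKM (log axis), with 1 point per wild-type group for the authors' average. Tuba1a leads at 5153 and 5446 FPKM, and the points of the 2 groups lie close together in each row.

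Of all autosomal rows, 6749 had a mean of 10 FPKM or more, 639 of 100 or more and 28 of 1000 or more. The 10 highest rows held 6.31% of the summed autosomal FPKM, the 100 highest 24.8% and the 1000 highest 56.7%. The 72 ribosomal protein rows held 12.3% of it, with a median level of 726 FPKM, led by Rpl41 (1260 and 1532 FPKM) and Rpl23a (1283 and 1421). The 29 genes listed for the neuronal cytoskeleton held 6.38%, and the 18 translation factors 3.03%. The former list includes genes that other cells express too, such as the actins Actb and Actg1, so its share is not one of neurons. Of 25 genes of synapses and neuronal maturation all were at 1 FPKM or more, with a median of 47.9 FPKM, led by the endosomal protein gene Nsg2 (654 and 699 FPKM).

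Genes of newborn and upper-layer excitatory neurons stood high among the marker lists. The 18 genes of newborn excitatory neurons had a median mean level of 178 FPKM. Neurod6, a basic helix-loop-helix factor of these neurons, stood at 537 and 424 FPKM in the same order, and Tbr1, a T-box factor of early-born neurons, at 155 and 102. Upper-layer genes had a median of 49.7 FPKM over 18 genes, among them the POU factor gene Pou3f3 (132 and 109 FPKM). Deep-layer genes had a median of 18.2 FPKM over 18 genes, among them Rprm (92.7 and 121 FPKM), Bcl11b, a factor of corticospinal neurons (69.8 and 52.9), and Fezf2, which acts upstream in the same neurons (62.5 and 52.0). Subplate genes were lower, at a median of 2.60 FPKM over 10 genes. Of the Cajal-Retzius genes, Reln, which encodes the secreted protein reelin, stood at 54.0 and 49.5 FPKM, and the median of the 12 was 3.77.

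Progenitor genes were near the deep-layer genes in level. Radial glia genes had a median of 22.1 FPKM over 23 genes, led by the fatty acid binding protein gene Fabp7 (427 and 592 FPKM), Dbi (189 and 234) and the intermediate filament gene Vim (170 and 219). Intermediate progenitor genes had a median of 17.1 FPKM over 16 genes, with the T-box factor Eomes at 40.4 and 37.0 and the zinc finger factor Insm1 at 47.0 and 41.0. Cell cycle genes had a median of 15.6 FPKM over 32 genes, led by Pcna, the clamp of DNA replication, at 111 FPKM in both groups.

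For other cell types, the median was 10.7 FPKM over 23 interneuron genes, led by the peptide genes Sst (101 and 148 FPKM) and Npy (69.3 and 105). It was 8.12 FPKM over 23 astrocyte genes, 5.41 over 20 endothelial, 3.78 over 12 pericyte, 3.10 over 16 oligodendrocyte lineage and 2.77 over 18 microglia and macrophage genes. The tight junction gene Cldn5 of brain endothelium stood at 22.5 and 29.2 FPKM. Gfap, the astrocyte intermediate filament, was under 1 FPKM in both groups, as were Aqp4, S100b and Gjb6 of the same list.

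Midbrain and hindbrain markers were at or near 0. None of 13 midbrain and hindbrain genes reached 1 FPKM, 12 had a mean under 0.1, and Fev, Hoxa2 and Hoxa5 were among those listed at 0 in both groups. Few markers of thalamus, hypothalamus and choroid plexus were detected at that level. Of 12 thalamic genes 3 reached 1 FPKM in either group, led by the glutamate transporter gene Slc17a6 (16.7 and 16.02 FPKM), of 13 hypothalamic genes 3, and of 16 choroid plexus genes on autosomes 2. Ttr, the main choroid plexus transcript, was under 1 FPKM in both groups. Cartilage, bone and muscle genes reached it in 2 of 15, and melanocyte genes in 2 of 8, one of these being the receptor gene Kit (16.7 and 13.3 FPKM), which other cells express too. A listed 0 may also mean that the estimate failed, since Hmgcs1, an enzyme of cholesterol synthesis, was at 0 in both groups too. Genes listed for bordering regions reached 1 FPKM in either group more often. These were 17 of 18 striatal, 15 of 18 hippocampus and hem and 7 of 11 ganglionic eminence progenitor genes. The 3 hypothalamic genes all reached 1 FPKM only in the Nfib line. Choroid plexus genes were higher in the Nfib line in 12 of 16 and lower in 4. Of all rows with a mean of 0.1 to 1 FPKM, 68.1% were higher there. How much of these or of the bordering regions each dissection included was not tested.

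**Figure D2:**
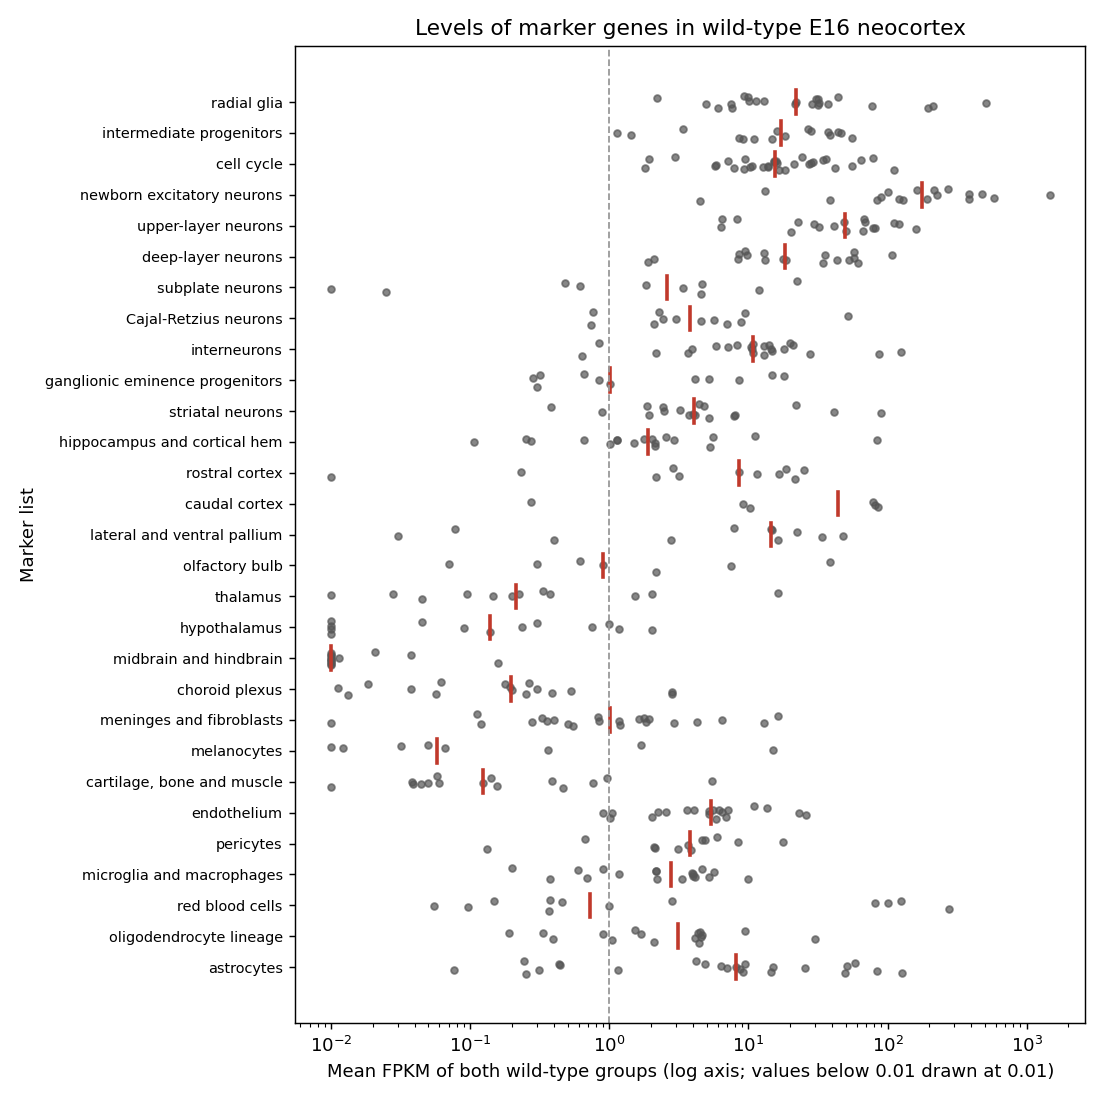
Mean FPKM of both wild-type groups (log axis) for each marker gene, 1 point per gene and 1 row per list, with the list median as a red bar, 1 FPKM as a dashed line and means below 0.01 FPKM drawn at 0.01. Newborn excitatory neuron genes have the highest median, 178 FPKM, and midbrain and hindbrain genes lie below 1.

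The groups were then compared by the log2 of (Nfib-line FPKM + 0.1) over (Nfia-line FPKM + 0.1), in which a positive value means higher in the Nfib-line wild types. The added 0.1 understates differences of low genes. The levels were close, with a median difference of 0.021, 96.1% of rows within 1.5-fold and a Spearman rho of 0.991 across rows, which are not independent replicates. The scaled median absolute deviation of the log2 difference was 0.18 over all rows. It was 0.27 for rows with a mean of 1 to 5 FPKM and 0.15 for rows of 20 to 100 FPKM, so a given difference stands out more at high levels. At least a 2-fold difference was reached by 109 rows higher in the Nfib line, 0.913% of the rows compared, and by 14 higher in the Nfia line, 0.117%. Most of these were low, since 90 of the 109 and 9 of the 14 had a mean below 5 FPKM. Across the 1 FPKM limit, 276 rows reached it only in the Nfib line and 66 only in the Nfia line. At the limits, Cdc14b (1.001 and 0.737 FPKM) was just inside 1 FPKM and 4930447C04Rik (0.9996 and 0.721) just outside, and for the 2-fold limit Dab2 (log2 1.004) was just inside and Eps8l1 (0.997) just outside.

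**Figure D3:**
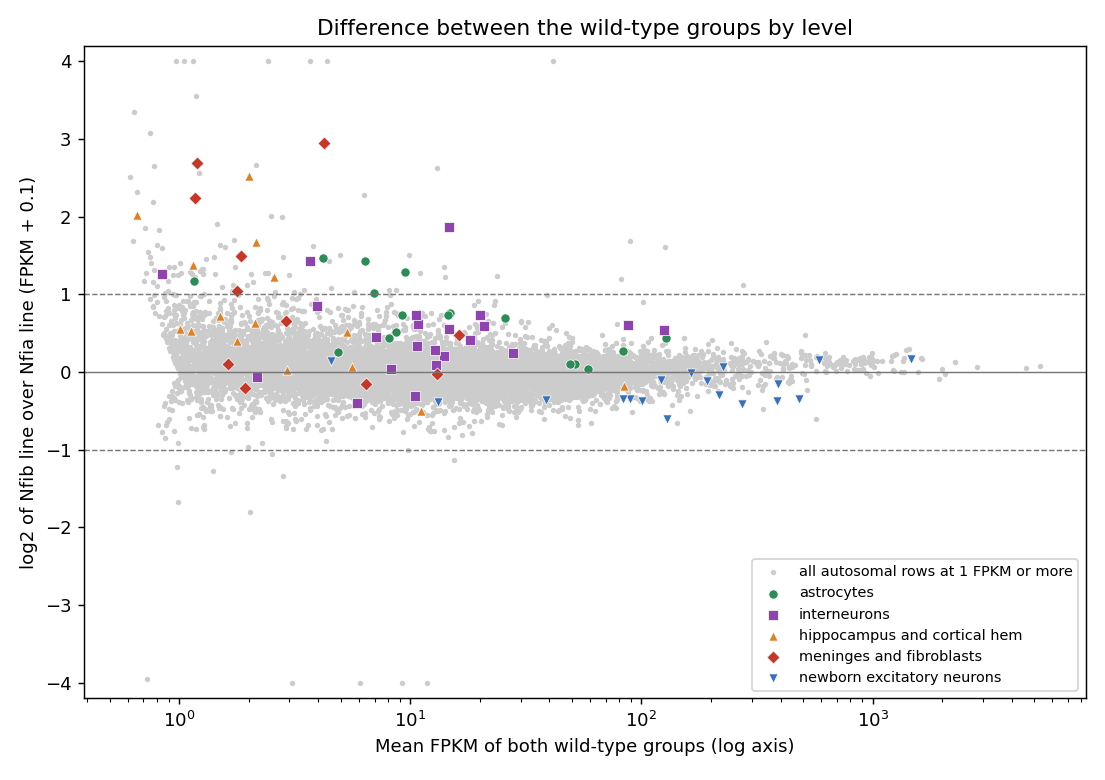
Log2 of Nfib-line over Nfia-line wild type against mean FPKM (log axis), 1 grey point per autosomal row at 1 FPKM or more and coloured points for members of 5 lists. Dashed lines mark 2-fold and rows beyond 4 in either direction are drawn at the edge. Astrocyte points lie above 0, while most points of newborn excitatory neuron genes lie below it.

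Among rows at 5 FPKM or more in either group, Crym and Nr2f2 were among those with the largest differences. Crym, whose product binds thyroid hormone and which marks subsets of deep-layer neurons, was at 3.56 and 22.5 FPKM (log2 2.63). The other 17 deep-layer genes were all within 2-fold, and their list had a median of -0.16. Nr2f2, a nuclear receptor gene of the caudal ganglionic eminence and of ventral and caudal cortex, was at 6.22 and 23.0 FPKM (log2 1.87). The counts of direction below cover all members of a list, whatever their level. Over all autosomal rows with a mean of 0.1 FPKM or more 56.8% were higher in the Nfib line, as were 68.1% of rows with a mean of 0.1 to 1 FPKM and 64.3% of those of 1 to 5. Of the caudal cortex markers all 6 were higher in the Nfib line, among them Nr2f1, the close relative of Nr2f2 (61.8 and 95.3 FPKM, log2 0.62), and Fgfr3 (6.87 and 11.5, log2 0.73). The most abundant, Bhlhe22 (83.3 and 86.4 FPKM, log2 0.05) and Lhx2 (75.0 and 86.3, log2 0.20), differed less. Fgfr3 is also in the astrocyte list, Wnt8b in that of hippocampus and hem and Lhx2 in the upper-layer list. Rostral cortex genes split, with 3 of 11 higher in the Nfib line, 7 lower and 1 at 0 in both, and none at 2-fold. Of the lateral and ventral pallium genes 7 of 11 were higher, a share near that of all rows, though Cyp26b1, an enzyme that degrades retinoic acid, was at 1.05 and 4.51 FPKM (log2 1.998).

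Genes of medial pallium were higher in the Nfib line at low levels. Of 18 genes of hippocampus and cortical hem, 16 were higher there and 2 lower, with a median log2 difference of 0.68 over all 18. Prox1, the homeobox gene of dentate granule cells, was at 0.973 and 3.32 FPKM (log2 1.67). Lhx9, a LIM homeobox gene of medial pallium, thalamus and hypothalamus, was at 0.523 and 3.50 (log2 2.53). The secreted Wnt enhancer gene Rspo1 was at 0.198 and 1.11 (log2 2.03), and Dmrt3, a factor of medial progenitors, at 0.592 and 1.69 (log2 1.38). The members with the highest levels went the other way, Wnt7b at 89.3 and 78.7 FPKM (log2 -0.18) and Rspo3 at 13.1 and 9.21 (log2 -0.50). Of the next, Dmrta2 differed little (5.46 and 5.71, log2 0.06), while Axin2 was higher in the Nfib line (4.37 and 6.29, log2 0.52). Of 15 members at 1 FPKM or more in either group 6 reached that level only in the Nfib line, which by itself selects for a difference in that direction.

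Genes of the ventral forebrain were also higher in the Nfib line. Of 23 interneuron genes 20 were higher and 3 lower (median 0.54 over all members). Besides Nr2f2, the serotonin receptor gene Htr3a, a marker of interneurons from the caudal ganglionic eminence, was at 1.94 and 5.41 FPKM (log2 1.44). The homeobox gene Nkx2-1 of the medial ganglionic eminence was at 0.457 and 1.24 (log2 1.26). The abundant Sst and Npy differed by less, with log2 values of 0.54 and 0.60. Of 18 striatal genes 15 were higher (median 0.60), among them Tac1, which encodes substance P (5.20 and 10.9 FPKM, log2 1.06), the homeobox gene Six3 (1.37 and 3.46, log2 1.27) and Penk, which encodes enkephalin (2.16 and 4.26, log2 0.95). The striatal genes with the highest levels were lower in the Nfib line, with Meis2 at 95.2 and 82.8 FPKM and Ppp1r1b at 48.2 and 34.3, both of which neocortical cells also express. Of 11 genes of ganglionic eminence progenitors 10 were higher (median 0.52), but 3 of these genes are also in the interneuron list. Gli1, a target gene of Hedgehog signalling in this list, was at 0.551 and 1.478 FPKM (log2 1.28).

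All 23 astrocyte genes were higher in the Nfib line, 17 of them at 1 FPKM or more, with a median of 0.69 over all members. Of all rows compared, a positive difference was found in 54.6%. Gja1, the gap junction gene of astrocytes and radial glia, was at 3.40 and 9.29 FPKM (log2 1.43). Id3, an inhibitor of basic helix-loop-helix factors, was at 5.48 and 13.6 (log2 1.29), and Scrg1 at 2.17 and 6.20 (log2 1.47). Members with higher levels differed less, as Cst3 (108 and 147 FPKM, log2 0.44) and Glul, the gene of glutamine synthetase (57.6 and 59.3, log2 0.04). Gfap (0.114 and 0.753 FPKM), Aqp4 (0.255 and 0.364), S100b (0.248 and 0.255) and Gjb6 (0 and 0.487) were under 1 FPKM in both groups. Since listed genes such as Gja1 are shared with radial glia, astrocyte content was not tested by this list. Of 16 oligodendrocyte lineage genes 15 were higher (median 0.38), among them the basic helix-loop-helix gene Olig1 (7.56 and 11.3 FPKM, log2 0.58). Of 23 radial glia genes 16 were higher and 7 lower (median 0.31, none at 2-fold), led by the Notch target Hes5 (8.34 and 14.2 FPKM, log2 0.76) and by Mfge8 (25.0 and 39.3, log2 0.65).

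Genes of newborn, upper-layer and deep-layer excitatory neurons leaned the other way, by small amounts. Of 18 newborn excitatory neuron genes 14 were lower in the Nfib line (median -0.32), none at 2-fold. Tbr1 had the largest difference of them, at -0.60, and the SOX factor gene Sox11 was at 309 and 233 FPKM (log2 -0.41). Of 18 upper-layer genes 14 were lower (median -0.20), with Pou3f2 at 58.8 and 38.9 FPKM (log2 -0.59) and Lmo4 in the opposite direction (56.5 and 78.6, log2 0.47). Deep-layer genes gave 13 lower and 5 higher, with Sox5 at 64.1 and 41.9 FPKM (log2 -0.61). Cajal-Retzius genes did not lean that way, with 9 of 12 higher (median 0.26), among them Calb2, which encodes calretinin (6.64 and 11.1 FPKM, log2 0.73), and subplate genes gave 5 higher, 4 lower and 1 at 0 in both. Of 32 cell cycle genes 25 were lower (median -0.11), with Mki67, the proliferation marker, at 27.7 and 20.7 FPKM (log2 -0.42). Intermediate progenitor genes were split evenly, 8 and 8. The nuclear factor I genes themselves were intact by label in both groups. Nfib was at 190 and 134 FPKM (log2 -0.51), Nfia at 33.7 and 24.3 (log2 -0.47), Nfix at 165 and 163 and Nfic at 6.16 and 6.71.

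**Figure D4:**
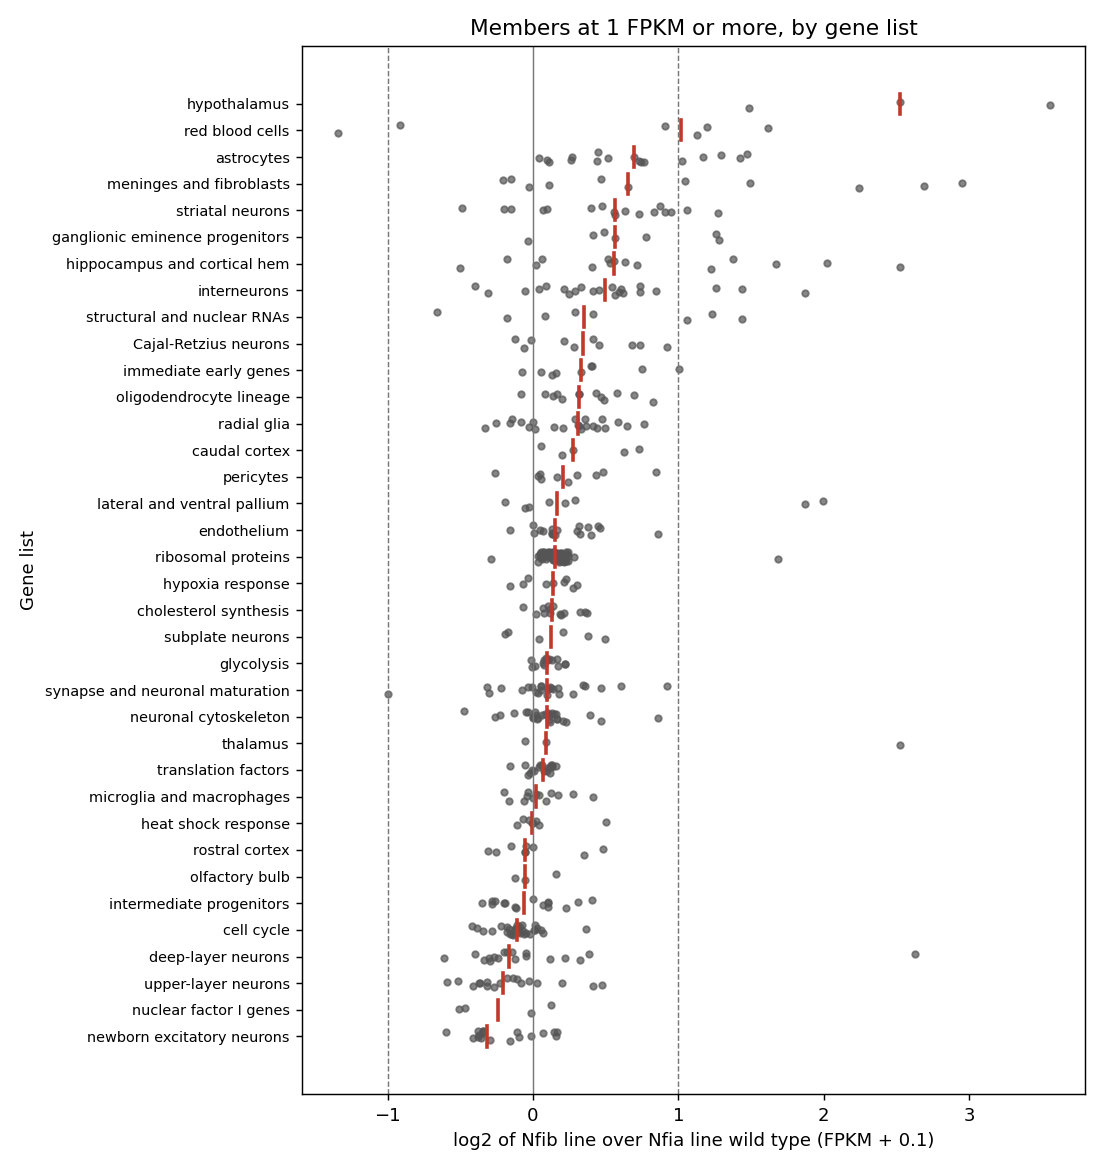
Log2 of Nfib-line over Nfia-line wild type for members at 1 FPKM or more, 1 point per gene, lists with at least 3 such members in order of their median (red bar), dashed lines at 2-fold. Lists of hypothalamus, ventral forebrain, medial pallium, astrocytes, meninges and blood lie to the right, excitatory neuron lists slightly to the left. All 3 hypothalamic members plotted reached 1 FPKM only in the Nfib line. So did 6 of 15 of hippocampus and hem and 4 of 11 of meninges, which by itself selects for a place at the right.

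Covering and blood tissue differed as well. Of 22 genes of meninges and fibroblasts 18 were higher in the Nfib line (median 0.90). Only 11 reached 1 FPKM in either group, and at such levels most rows of the table were higher there too, as given above. Ptgds, the prostaglandin synthase gene of the meninges, was at 0.893 and 7.59 FPKM (log2 2.95). The matrix genes Dcn, of the proteoglycan decorin (0.247 and 2.13 FPKM, log2 2.69), and Col1a1 of collagen I (0.342 and 1.99, log2 2.24) differed in the same direction. Members with higher levels differed by less, with the growth factor gene Igf2 at 13.6 and 18.9 FPKM (log2 0.47), the chemokine gene Cxcl12 at 13.1 and 12.9 and Zic1 at 6.74 and 6.07. Endothelial genes were higher in 18 of 20 and pericyte genes in 11 of 12, by medians of 0.16 and 0.27. Microglia and macrophage genes were split 9 and 9.

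Globin rows split by stage. The adult rows were 2-fold or near it in the direction of the Nfib line, with Beta-s, a beta globin, at 172 and 377 FPKM (log2 1.13), Hba-a2, an alpha globin, at 61.9 and 190 (log2 1.62), Hbb-b2 at 49.6 and 114 (log2 1.20) and the joint row of Hba-a1 and Hba-a2 at 70.3 and 132 (log2 0.91). The embryonic rows were higher in the Nfia line, Hbb-y at 4.06 and 1.54 FPKM (log2 -1.34) and Hba-x at 1.33 and 0.657 (log2 -0.92). Globin genes are near-identical within a class, so reads may be split between these rows. The part of blood, meninges or neighbouring brain tissue in any other difference was not tested.

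Few rows were at 2-fold or more in favour of the Nfia line. Of the 14, 6 were small RNA rows. Of the other 8, the highest were Kcnq3, a potassium channel subunit gene (21.3 and 9.69 FPKM, log2 -1.13), and Grin2b, a glutamate receptor subunit gene (13.04 and 6.47, log2 -1.0001). The rest were below 5 FPKM, among them Hbb-y and Pet117 (3.21 and 0.851, log2 -1.80). Hmga2, a chromatin protein gene of early progenitors, was at 2.03 and 0.781 FPKM (log2 -1.27), the growth factor gene Fgf18 at 3.45 and 1.61 (log2 -1.05) and the pigment cell gene Dct at 2.30 and 1.07 (log2 -1.03). Within 2-fold, Mc4r, a melanocortin receptor gene, was at 18.6 and 10.4 FPKM (log2 -0.84) and Nrip1, a nuclear receptor corepressor gene, at 21.5 and 12.1 (log2 -0.82).

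The difference moved with transcript length. Across 11890 rows with a length in GENCODE M21, 99.6% of those compared, its Spearman rho with the longest annotated transcript was -0.471, a description over genes. Rows in the shortest of 10 bins, below 1289 bases, had a median log2 difference of 0.15, and those in the longest, above 6863 bases, one of -0.20. In the groups labelled knockout the corresponding rho was 0.052, and the medians were -0.035 and 0.0018. The short ribosomal protein rows, of which only Rps27 (42.5 and 137 FPKM) reached 2-fold, were higher in the Nfib line in 71 of 72 (median 0.15), and in 41 of 72 (median 0.017) once each difference was taken relative to rows of like length. Long transcripts were among the rows lower in the Nfib line, as Grin2b and the microtubule protein gene Map1b (391 and 282 FPKM, log2 -0.47). Relative to rows of like length, list medians were taken over members at 1 FPKM or more in either group. They were 0.61 for astrocytes, 0.55 for striatal, 0.44 for interneuron, 0.62 for hippocampus and hem and 0.62 for meningeal genes. Over the same members without that step they were 0.69, 0.56, 0.50, 0.56 and 0.65. Of these members 6 of 15 of hippocampus and hem and 4 of 11 of meninges reached 1 FPKM only in the Nfib line. So did 1 each of the astrocyte, striatal and interneuron lists. This by itself selects for a positive median, with or without the step by length. For newborn, upper-layer and deep-layer excitatory neurons the medians were -0.17, -0.085 and -0.13 by length, and -0.32, -0.20 and -0.16 without. Nfia and Nfib, with longest transcripts of 9526 and 9116 bases, fall in the longest bin. The median of the 4 nuclear factor I genes was -0.093 by length and -0.24 without. What makes the difference move with length was not tested.

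**Figure D5:**
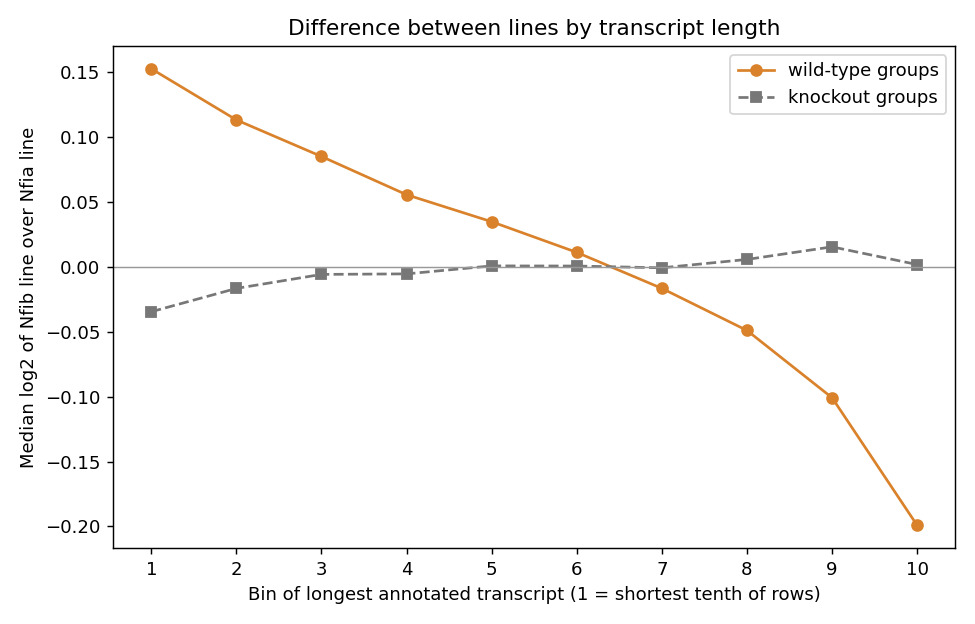
Median log2 of Nfib line over Nfia line in 10 bins of longest annotated transcript, for the wild-type groups (circles) and the groups labelled knockout (squares). The wild-type medians go from 0.15 in the shortest bin to -0.20 in the longest, while the knockout medians stay between -0.035 and 0.015.

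The groups labelled knockout in the same lines share no library with the wild types, and the same rows were set beside them. The targeted genes were read first. Nfib was at 9.12 FPKM in the group labelled Nfib knockout, against 134 in its wild types. Nfia was at 28.2 FPKM in the group labelled Nfia knockout, against 33.7 in its wild types, so its level alone does not bear out that label. Of the rows compared 9 were listed at 0 in a group labelled knockout, among them Tuba1a in both and Eef1a1 in that of the Nfia line, which can be failed estimates. The labelled genotype differs between lines, so a line and a knockout cannot be told apart there. Of the 109 rows at 2-fold or more in favour of the Nfib-line wild types, 8 were also 2-fold higher in the group labelled Nfib knockout and 27 were 2-fold higher in that labelled Nfia knockout, against 0.134% and 0.821% of all rows compared. Of the 8 rows 1 rests on a listed 0, as does 1 of the 27. Among the 8 were Rps27 (16.96 FPKM in the group labelled Nfia knockout and 68.5 in that labelled Nfib knockout) and the joint row of Amd1 and Amd2 (0.446 and 3.04). The ribonuclease RNAs Rmrp (2.19 and 10.7) and Rpph1 (1.63 and 3.80), the small RNAs Snora52 and Snord15a, and Ptgds were too. The median of the 109 rows between the groups labelled knockout was -0.49, with 72 of 109 negative. Crym was at 2.28 FPKM in the group labelled Nfia knockout and 1.59 in that labelled Nfib knockout, and Nr2f2 at 14.98 and 6.57. The meningeal Dcn was at 0.277 and 0.274 FPKM, Col1a1 at 0.285 and 0.430 and Hba-a2 at 49.5 and 54.2, each near the lower of its wild-type averages. Other rows of these lists lay elsewhere, with Ptgds at 0.537 and 1.59 FPKM, Beta-s at 194 and 269 and the joint row of Hba-a1 and Hba-a2 at 71.4 and 125, so higher in the Nfib line there too. Gja1 was at 4.01 and 4.58 FPKM and Id3 at 5.88 and 5.06. List medians between the groups labelled knockout were taken over members at 1 FPKM or more in either wild-type group. Ventral forebrain genes were higher in the Nfia line there, with -1.68 over 17 striatal and -0.66 over 22 interneuron genes. Of the striatal genes 11 were 2-fold or more higher in that line. The median was 0.04 for astrocyte and 0.10 for meningeal genes.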

How the data were processed

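The deposited table holds FPKM, the authors' weighted average per group, per the file headers. The submitters' processing notes name mm9 and the tools Cuffdiff 2.1.1, Cufflinks, TopHat2 2.0.10 and CASAVA 1.8.2. How reads were assigned is not given in the labels, so overlapping, antisense and near-identical genes are uncertain. With 1 value per gene and group, no test, error or depth could be had, and the limma test planned for values per library did not apply. The deposited folds and p-values compare the groups labelled knockout with wild types and were not used.

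Chromosomes were matched by symbol or synonym to RefSeq (GRCm38.p6) and GENCODE M21, and 137 rows on no or several chromosomes were left out. Analysis used Python 3.11.15, numpy 2.4.6 and pandas 2.3.3. Rows at 1 FPKM or more in either group were compared after adding 0.1. The 40 lists and the comparison were chosen with earlier results of these data known. Globin row names were added to the blood list after the table was seen. Named genes are the 30 highest rows, the 15 largest differences per direction (10 at 5 FPKM or more) and the nuclear factor I genes. Up to 4 members per list were also named by level, by difference, or when listed at 0. Gfap, Aqp4, S100b, Gjb6, Ttr, Hba-x, Hspa1a, Pomc and the rows next to a limit were named after their values were seen. Alternatives were other pseudocounts, filters, scalings and folds. Leaving out small RNA rows and centring by transcript length were chosen after seeing the data.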

Additional observations from a re-analysis of the deposited data

How the results depend on the processing

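No paired analysis was possible because the table gives 1 average per group, and for the same reason leaving out each replicate was not run. The counts at 2-fold, 109 rows higher in the Nfib-line and 14 in the Nfia-line wild types, depended on low rows. They came to 42 and 7 with 1 FPKM added in place of 0.1, to 28 and 6 at 5 FPKM or more in either group, to 41 and 5 at 1 FPKM or more in both groups, and to 316 and 53 with no filter. At 1.5-fold they were 379 and 90, and at 4-fold 24 and 5. Without small RNA rows 8 were higher in the Nfia line. The count for the Nfib line was the larger under each of these. Centring on the median, equal autosomal sums, 0.01 FPKM added, leaving out rows naming more than 1 gene, and centring by length kept both counts within 1.5 times. The median of the hippocampus and hem list went from 0.56 over members at 1 FPKM or more to -0.059 at 5 FPKM or more, where fewer members remain. That of melanocyte genes went from -0.68 over 2 members to 0.055 with no filter, and that of blood genes from 1.02 to -0.046 by length, where 4 of 6 members had a length. Of the 30 highest rows, 29 and 28 stayed when each group was ranked alone. No value per library was at hand, so the size of a difference that chance between libraries gives is unknown, most of all for rows of a few FPKM.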

Other observations

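Genes that respond to handling of tissue were measured too. Heat shock genes did not differ between the wild-type groups by over 1.5-fold among the 8 of 10 at 1 FPKM or more, with a median log2 difference of -0.0059, and the inducible Hspa1a was under 1 FPKM in both groups. Hypoxia response genes had a median of 0.14 over 9 members, with Ndrg1 at 55.4 and 49.6 FPKM and Ddit4 at 48.7 and 47.6. Immediate early genes, which neuronal activity and dissection raise, had a median of 0.33 over 9 members. Of these, Npas4 and Egr3 (0.889 and 1.56 FPKM) reached 1 FPKM only in the Nfib line, as did 1 of the 9 hypoxia response genes. That by itself selects for a positive median. The most abundant, Jun (20.99 and 19.9 FPKM) and Dusp1 (15.9 and 16.6), were close, and the activity-dependent gene Npas4 was at 0.590 and 1.28. Glycolysis genes had a median of 0.10 over 14 members, led by Gapdh at 698 and 750 FPKM. Cholesterol synthesis genes had a median of 0.13 over 14 members, led by Fdps at 110 and 142 FPKM.

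Small and structural RNAs gave the most uneven values. Of 21 small RNA rows at 1 FPKM or more in either group, 10 were listed at 0 in one of them, as Snora2b (0 and 83.3 FPKM) and Snora65 (23.6 and 0). Only 1 other row did so, the carbonyl reductase gene Cbr2 (0 and 1.94 FPKM). The nuclear RNA Malat1 was at 175 and 111 FPKM (log2 -0.66), while Meg3, another long noncoding RNA, was at 173 and 230 (log2 0.41) and Snhg11 at 14.1 and 33.3 (log2 1.23). The RNA components of 2 ribonucleases, Rmrp (5.60 and 11.8 FPKM, log2 1.06) and Rpph1 (2.36 and 6.54, log2 1.44), were higher in the Nfib line. Both were also higher in that line between the groups labelled knockout.

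Of 13 hypothalamic genes 9 were higher in the Nfib line, none lower and 4 at 0 in both, most of them far below 1 FPKM. Pomc, the precursor gene of melanocortins, was close in both (0.979 and 0.997 FPKM). Fezf1, a zinc finger factor gene of this list, was at 0.101 and 2.26 FPKM in the wild types of the Nfia and the Nfib line. Among other low rows with large differences, Tac2, which encodes neurokinin B, was at 0.510 and 3.78 FPKM, and Dio3, which inactivates thyroid hormone, at 0.0798 and 1.42. Cldn11, a tight junction gene, was at 0.141 and 1.41 FPKM. Their log2 differences were Fezf1 3.56, Tac2 2.67, Dio3 3.08 and Cldn11 2.65. In the groups labelled Nfia and Nfib knockout, Fezf1 was at 3.11 and 0.266 FPKM and Tac2 at 0.142 and 0.0595.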
